A study of Mus musculus with 26 samples.

Results

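The arrays titled ES17 to ES20 and those titled ES25 and ES26 are 6 of the 26 mouse exon arrays of the series, and all 6 carry the same labels. Each is described as embryoid body material of strain C57BL/6, with no treatment, time, genotype or age. They were set side by side because of values measured on them, chiefly the fibroblast matrix gene Dcn, the retinoic acid receptor gene Rarb, the mesothelium gene Msln and the collagen gene Col1a2. The division into 4 and 2 arrays is therefore drawn from the measurements, the labels do not separate the sets, and every difference below is a description of these arrays without a test. All RNA was amplified in 2 rounds, and nothing in the labels says whether the 6 samples came from separate cultures or gives a batch. Of the other arrays, 14 are labelled 129S2/SvPas, and 6 more are labelled C57BL/6, titled ES15, ES16 and ES21 to ES24; values of these 6 are given where they place a level.

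Embryoid bodies are aggregates in which embryonic stem cells leave pluripotency and form derivatives of all germ layers, among them mesenchyme, blood, endothelium and epithelium. Fibroblasts and other mesenchymal cells secrete collagens, proteoglycans such as decorin and lumican, and the enzymes that build and cut the matrix. Retinoic acid is made from retinol by dehydrogenases, binds nuclear receptors that pair with retinoid X receptors on DNA, and is broken down by enzymes of the Cyp26 family.

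A gene value is the median of the brighter part (50%) of the gene's probe sets in 1 array, on the log2 scale, so 1 unit is a 2-fold difference. Values were computed for 18341 genes with 4 or more probe sets. A difference is the median of ES17 to ES20 minus the median of ES25 and ES26. Values listed by array, or for both sets with the word against, are gene values; a single signed or unsigned number in parentheses after a gene is its difference. A gene was called higher or lower where the ranges of the sets did not overlap and their medians differed by 1 log2 unit or more. By that rule 1570 genes, 8.56% of all, were called higher in ES17 to ES20, and 1442 genes, 7.86%, were called lower. Since the sets were chosen by such differences, these shares describe the choice and nothing is read from them. Counts over the gene lists below are to be read beside these shares.

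The median difference over all genes was -0.02, and single genes lay between -6.16 and 7.86. Differences of 3 log2 units (8-fold) or more were found for 238 genes called higher and 69 called lower. At the threshold, Synpo2 and Kif3a at 1.00 were just inside, and Lix1 and Ifitm6 fell just short of 1 unit in size. Within ES17 to ES20 the typical gene spanned 0.408 log2 units, and between ES25 and ES26 it differed by 0.301. Median probe set values of the 6 arrays lay between 5.40 and 5.51. Across the 18341 genes, arrays within ES17 to ES20 had Pearson correlations of 0.977 to 0.991, ES25 and ES26 of 0.984, and pairs between the sets of 0.904 to 0.916. ES25 and ES26 correlated with ES21 to ES24 at 0.929 to 0.972, and ES17 to ES20 at 0.897 to 0.925. With ES15 and ES16, ES17 to ES20 correlated at 0.945 to 0.985, which overlaps the range within their own set. ES25 and ES26 correlated with ES15 and ES16 at 0.924 to 0.931. These arrays share probes and normalization, so the correlations are given as descriptions.

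**Figure D1:**
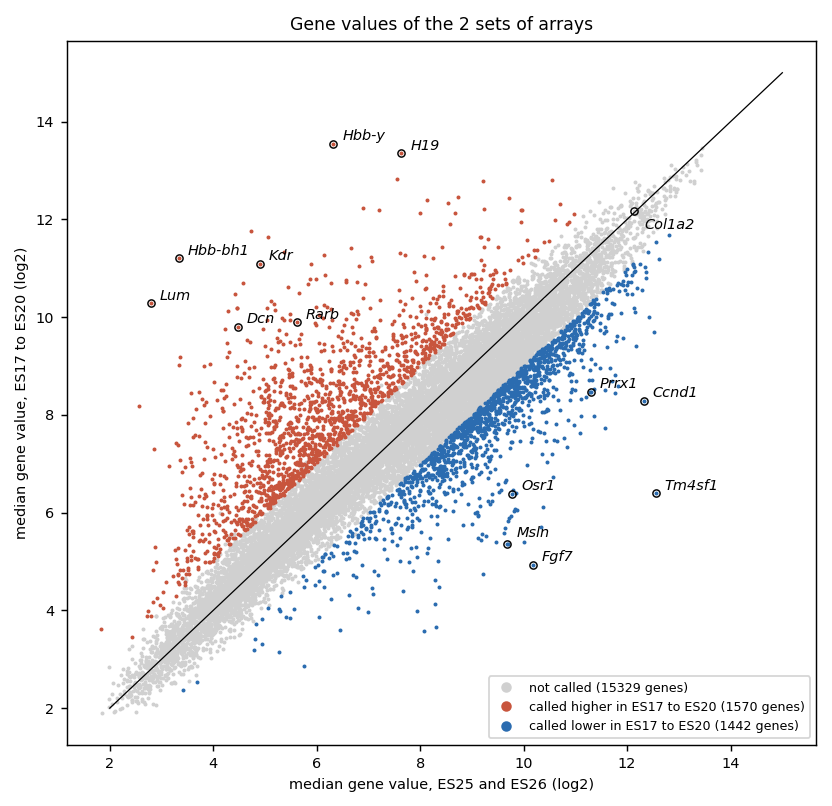
Median gene value of ES17 to ES20 (vertical axis, log2) against that of ES25 and ES26 (horizontal axis, log2), 1 point per gene for 18341 genes, with a line of equal values. Red points are the 1570 genes called higher in ES17 to ES20 and blue points the 1442 called lower; Lum, Dcn, Rarb and the globins lie far above the line, Tm4sf1, Fgf7 and Msln far below it, and Col1a2 lies on it.

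The genes at the centre of the description include Rarb, whose promoter is a textbook site of retinoic acid receptor binding, and Cyp26a1, the retinoic acid hydroxylase. The next sequences are the 250 bases before the start of each gene in RefSeq (build GRCm38.p6), shown because both hold a direct repeat of the kind these receptors bind. They are written 5′ to 3′ on the gene's strand in lower case, with the repeat in capitals. The Rarb window lies at chr14:16575477-16575726 on the minus strand and that of Cyp26a1 at chr19:37697558-37697807 on the plus strand.
Rarb: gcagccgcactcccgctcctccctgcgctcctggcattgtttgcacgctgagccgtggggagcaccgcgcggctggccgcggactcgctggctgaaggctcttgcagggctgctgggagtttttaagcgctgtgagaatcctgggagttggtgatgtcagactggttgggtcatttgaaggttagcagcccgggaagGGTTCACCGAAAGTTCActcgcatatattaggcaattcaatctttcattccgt
Cyp26a1: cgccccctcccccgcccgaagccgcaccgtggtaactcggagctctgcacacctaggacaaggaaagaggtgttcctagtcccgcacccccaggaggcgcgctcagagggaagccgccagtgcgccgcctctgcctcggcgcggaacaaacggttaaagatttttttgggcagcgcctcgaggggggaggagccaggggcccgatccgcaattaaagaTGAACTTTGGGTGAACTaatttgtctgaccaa
The repeat in Rarb lies 37 to 53 bases before the start and runs as the gene does. That in Cyp26a1 lies 16 to 32 bases before the start on the opposite strand. Both genes were called, Rarb higher in ES17 to ES20 and Cyp26a1 lower.

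The search asked for a pair of 6-base sites in 1 direction with 5 bases between them, on either strand. A site was A or G followed by GTTCA, or the same letters with a G in place of the first T. Among 14400 genes with a promoter entry, 10 held it, or 0.0694%. It was found in 4 of the 1184 genes called higher that had an entry (0.338%), and in 1 of the 1158 called lower (0.0864%). Besides Rarb, the 4 were Hbb-y, an embryonic beta-like globin, Ppbp, a platelet chemokine, and Blvrb, a biliverdin reductase. Their repeats are shown as the letters found in the promoter, each read on the strand of its gene, where it appears in the opposite direction.
Hbb-y: TGACCCTCCCATGACCT
Ppbp: TGACCTAGGTCTGACCT
Blvrb: TGAACTGGCTTTGAACT
The repeat lies 117 to 133 bases before the start in Hbb-y (window chr7:103853208-103853457, minus strand) and 230 to 246 in Ppbp (chr5:90768268-90768517, plus strand). In Blvrb it lies 3 to 19 bases before the start of 1 of the gene's 2 promoter entries (chr7:27452168-27452417, plus strand). Ppbp was at 10.67, 10.78, 10.79 and 10.33 in ES17 to ES20 against 6.48 and 6.65 in ES25 and ES26, and Blvrb at 10.29, 10.28, 9.67 and 9.26 against 7.78 and 8.45. Prokr2, Prss27, Gm1043, Cfap45 and Tnfsf13b held the repeat and were not called. A match describes the letters in this window and says nothing of binding.

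Rarb was at 8.32, 9.86, 9.92 and 10.29 in ES17, ES18, ES19 and ES20, and at 5.63 and 5.60 in ES25 and ES26. All 4 values of the first set lay well above both of the second, with ES17 the lowest of the 4. The difference was 4.28 log2 units, and all 11 of its probe sets were higher in ES17 to ES20. ES25 and ES26 were just above the range of ES21 to ES24, 4.79 to 5.59, and ES15 and ES16 lay between at 6.60 and 7.20. Among the other receptors, Rarg was called lower at 8.33, 8.30, 8.21 and 8.07 against 9.79 and 9.86. Rara, Rxra, Rxrb and Rxrg were not called, with differences of 0.22, -0.94, -0.14 and -0.05.

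Retinoic acid genes with other roles were called in both directions. Dhrs3, which reduces retinal back to retinol, was at 9.97, 9.79, 9.80 and 10.00 against 5.62 and 6.31, a difference of 3.92 with no overlap. Aldh1a2, which makes retinoic acid from retinal, was at 6.45, 6.77, 7.17 and 6.28 against 5.26 and 5.54. Crabp2, which carries retinoic acid to the receptors, was at 8.61, 7.29, 7.39 and 8.33 in ES17 to ES20 and higher, at 10.24 and 10.63, in ES25 and ES26. Dhrs9, a retinol dehydrogenase, was called lower with a difference of -1.24. Cyp26a1 was at 5.70, 6.03, 5.98 and 5.58 against 6.96 and 7.80, a difference of -1.54, and Cyp26b1 and Cyp26c1 were not called. Of 9 genes reported as targets, Tgm2, a transglutaminase, was called higher at 9.10, 9.07, 9.09 and 9.65 against 6.84 and 6.78, and so was the homeobox gene Meis1 with a difference of 1.16. The other 7, among them Hoxa5 (-0.79), Hoxb1 (0.07) and Stra8 (-0.40), were not called. Over the whole axis 5 of 30 genes were called higher and 4 lower, with a median of -0.01 beside -0.02 over all genes. These counts are 16.7% and 13.3%, beside 8.56% and 7.86% over all genes.

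**Figure D2:**
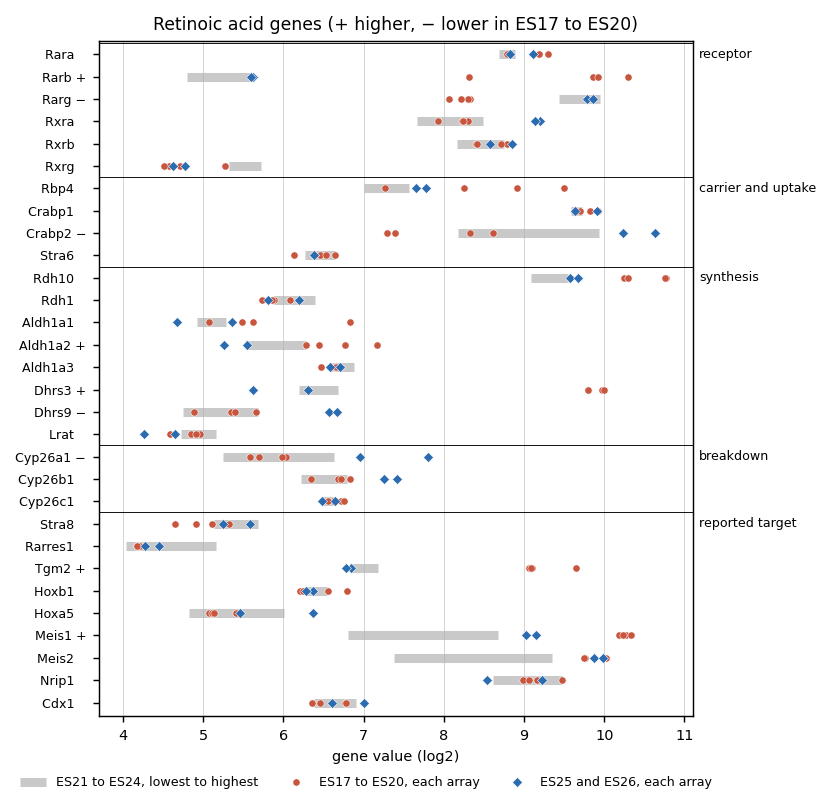
Gene values (horizontal axis, log2) of the 30 retinoic acid genes, grouped by role, with red circles for each of ES17 to ES20, blue diamonds for ES25 and ES26, and grey bars from the lowest to the highest of ES21 to ES24. Dhrs3 stands in the synthesis group, although it reduces retinal back to retinol. A plus marks the 5 genes called higher in ES17 to ES20, such as Rarb and Dhrs3, and a minus the 4 called lower, such as Crabp2 and Cyp26a1; the other genes overlap or differ by under 1 unit.

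Dcn encodes decorin, a small proteoglycan that binds collagen fibrils. It was at 8.20, 9.50, 10.12 and 10.51 in ES17, ES18, ES19 and ES20 and at 4.52 and 4.42 in ES25 and ES26. The sets did not overlap, ES17 was the lowest of its set, and the difference was 5.34. Both ES25 and ES26 lay below the median probe set of the 6 arrays (5.40 to 5.51) and were not shown to be above background, so the difference is no exact fold; the same holds for other genes at such low values. Of its 19 probe sets, 16 were higher and 3 lower, from -0.32 to 6.59 with a median of 2.82, so the median over all probe sets gives a smaller difference of 3.54 and their mean 2.97. ES25 and ES26 lay inside the range of ES21 to ES24 for Dcn, 4.22 to 5.21, while ES15 and ES16 were at 4.35 and 7.36.

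Lum encodes lumican, a proteoglycan related to decorin, and had the second largest difference of the genes named by size. Its values were 8.08, 9.73, 10.83 and 11.01 against 2.27 and 3.32, a difference of 7.49, and it ranged from 2.28 to 3.92 in ES21 to ES24. Fmod, the related fibromodulin, was at 7.93, 9.18, 9.12 and 9.10 against 4.68 and 4.54, again with ES17 lowest of its set. For all 3 proteoglycans ES25 and ES26 were at, near or below the levels of ES21 to ES24. The fibroblast list as a whole lay the other way: the mean level of the 46 genes of the fibroblast and mesenchyme list was 8.54 and 8.54 in ES25 and ES26, above the 7.32 to 8.17 of ES21 to ES24. As the markers differ in this, the sets are called by their titles. Ogn, a further small leucine-rich proteoglycan, went the other way at 3.56, 3.62, 4.47 and 4.81 against 6.67 and 6.95.

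Col1a2 and Postn placed ES25 and ES26 above ES21 to ES24. Col1a2 was at 11.03, 11.82, 12.52 and 12.80 in ES17 to ES20 and at 12.49 and 11.78 in ES25 and ES26, and ranged from 9.82 to 11.12 in ES21 to ES24. The sets overlapped for Col1a2 and their medians differed by 0.04, a sign that turned under 5 alternatives (-0.31 without ES19, ES20 or ES26); of its 66 probe sets 34 were higher and 32 lower. Postn, which encodes the matrix protein periostin, was at 11.65, 12.14, 12.23 and 12.13 against 8.16 and 7.83, with 5.18 to 5.56 in ES21 to ES24. All 4 arrays of the first set were higher than ES25 and ES26, and these in turn were higher than ES21 to ES24. Mfap4, a protein of elastic fibres, was at 10.66, 10.73, 10.88 and 10.66 against 6.42 and 6.12. Fn1, encoding fibronectin, overlapped at 12.51 to 12.78 against 12.73 and 12.29, and so did the microfibril gene Fbn1, at 10.42 to 11.24 against 10.48 and 10.33.

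Among surface proteins, the platelet-derived growth factor receptor gene Pdgfra was at 9.98, 10.18, 10.37 and 10.05 against 6.90 and 6.65, a difference of 3.34. Pdgfrb was not called at 9.02 to 9.78 against 10.05 and 9.41. Thy1, a fibroblast surface glycoprotein, was called lower at 5.66, 5.66, 5.92 and 4.98 against 6.66 and 6.85. Among 5 cytoskeletal and calcium-binding genes, S100a4 and S100a6 were called lower. S100a4, long used as a fibroblast marker, was at 4.84, 5.80, 6.13 and 5.35 against 9.49 and 9.76, a difference of -4.05, and S100a6 differed by -3.33. Vim was not called at 12.94 to 13.08 against 13.47 and 13.40, nor was Acta2 at 12.72 to 12.90 against 11.95 and 12.36.

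Mesenchymal transcription factors were also called in both directions. Tcf21, a factor of visceral and epicardial mesenchyme, was at 7.75, 7.93, 8.12 and 7.15 against 3.73 and 3.96, and ES21 to ES24 ranged from 3.50 to 3.94, much as ES25 and ES26 did. Its difference was 4.00, and 2.39 by the mean over all probe sets. Prrx1, a factor of limb and craniofacial mesenchyme, was at 9.01, 8.58, 8.35 and 7.99 against 11.28 and 11.31, with ES21 to ES24 from 8.26 to 10.58. Prrx2 differed by -2.66, Twist1 by -1.24, and Osr1, a factor of intermediate and lateral mesoderm, was at 6.24, 6.54, 6.59 and 6.22 against 9.60 and 9.95. For Prrx1, Prrx2 and Osr1 both ES25 and ES26 were above all of ES17 to ES20 and all of ES21 to ES24.

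Over the fibroblast and mesenchyme list, 16 of 46 genes were called higher and 11 lower, with a median of 0.11. Matrix genes had 9 of 19 higher and 4 lower, surface genes 4 of 8 higher and 1 lower, transcription factors 3 of 14 higher and 4 lower, and cytoskeletal genes 0 of 5 higher and 2 lower. The mean level of the list in ES17 to ES20 was 8.70 to 9.10. By role, the mean level in ES25 and ES26 was above ES21 to ES24 for matrix genes (8.41 to 8.60 against 7.33 to 8.12), transcription factors (8.25 to 8.35 against 7.08 to 7.89) and cytoskeletal genes (11.25 to 11.61 against 9.49 to 10.96), and overlapped it for surface genes (7.22 to 7.25 against 6.38 to 7.28). In these bulk samples, fewer cells of a type and less RNA per cell cannot be told apart. Markers of leukocytes, endothelium, epithelium and erythroid cells, described further on, moved with the same sets, and their part in the fibroblast genes was not tested.

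**Figure D3:**
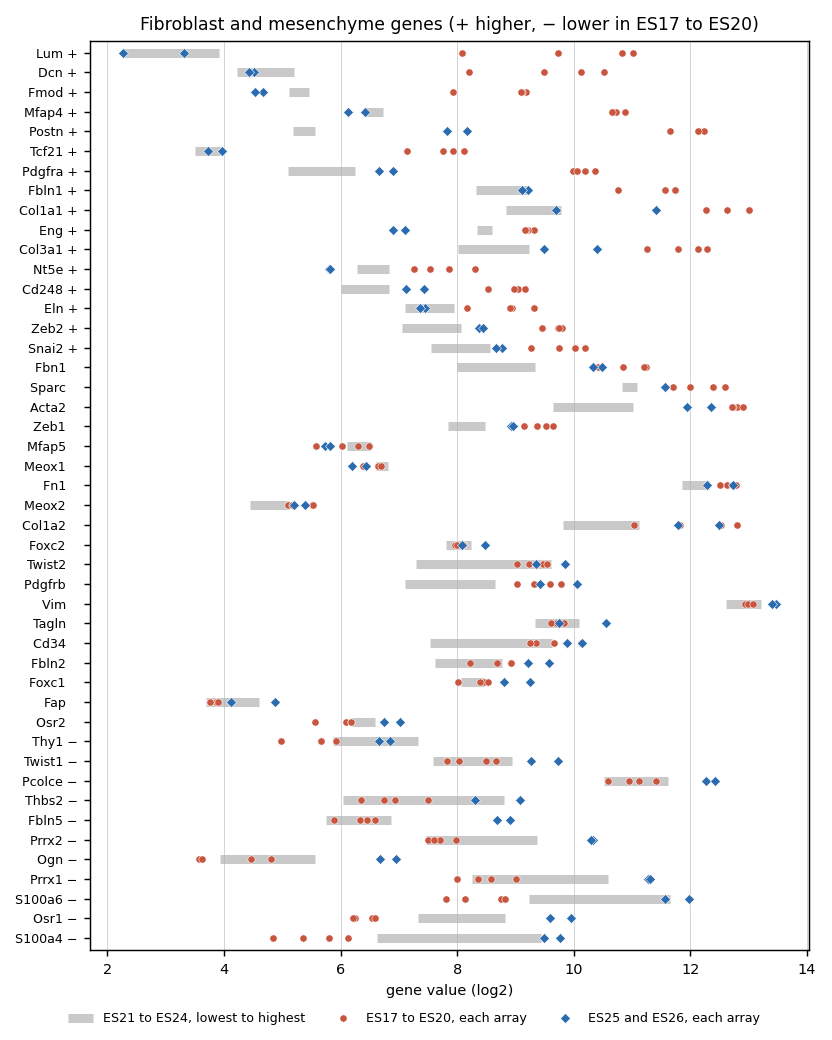
Gene values (horizontal axis, log2) of the 46 fibroblast and mesenchyme genes, ordered by the difference of the sets, with red circles for ES17 to ES20, blue diamonds for ES25 and ES26 and grey bars from the lowest to the highest of ES21 to ES24. A plus marks the 16 genes called higher, led by Lum and Dcn, whose blue diamonds fall on the grey bars; a minus marks the 11 called lower, led by S100a4 and Osr1.

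Collagens form the fibrils and sheets of the matrix. Of 39 collagen genes, 6 were called higher (15.4%) and 2 lower (5.13%), with a median of 0.12. Over all genes the shares were 8.56% and 7.86%. Col14a1, which associates with fibrils, was at 8.30, 9.38, 9.73 and 9.90 against 5.68 and 5.64, the largest collagen difference at 3.89. Col1a1, the partner chain of Col1a2 in type I collagen, was at 12.27, 12.63, 13.00 and 13.00 in ES17 to ES20, 11.41 in ES25 and 9.70 in ES26. The sets did not overlap for Col1a1 and differed by 2.26, but by 1.41 without ES26. Col3a1 was at 11.26, 11.78, 12.12 and 12.28 against 10.40 and 9.49, and Col5a1, Col9a1 and Col18a1 were called higher by 1.28, 1.29 and 2.22. Col12a1 was at 6.06, 5.92, 6.32 and 6.31 against 9.34 and 8.51, and Col8a1, a short-chain collagen, at 5.62, 5.41, 5.41 and 5.57 against 7.87 and 8.52. For these 2 collagens both ES25 and ES26 were above all of ES17 to ES20. Col6a3 overlapped, since it spread from 7.72 to 10.85 within ES17 to ES20 and was 9.64 and 9.15 in ES25 and ES26.

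Matrix enzymes and their inhibitors were called nearly evenly, 10 of 36 higher and 11 lower, with a median of -0.06. Serpine2, an inhibitor of serine proteases, was at 9.42, 10.00, 9.95 and 10.22 against 5.06 and 5.58, a difference of 4.66. The inhibitors of metalloproteinases Timp1, Timp2 and Timp3 were called lower, with differences of -1.70, -1.43 and -1.04. Among proteases, Adamts9, Mmp9 and Adamts2, the last of which trims procollagen, differed by 2.97, 2.73 and 2.66. Mmp3 (-1.64) and Htra1 (-1.71) were called lower. Of genes for collagen cross-linking and hydroxylation, Loxl2 and P4ha2 were called higher (1.83 and 1.88) and Loxl4 and P4ha3 lower (-2.60 and -1.31).

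Msln encodes mesothelin, a surface protein of the lining of body cavities. It was at 5.35, 5.32, 5.65 and 5.37 in ES17 to ES20 and at 9.34 and 10.03 in ES25 and ES26, a difference of -4.33, and all 19 of its probe sets were lower in ES17 to ES20. ES21 to ES24 ranged from 7.55 to 9.62, all above ES17 to ES20. Most called genes of the mesothelium and epicardium list lay the other way: 15 of 30 genes were called higher in ES17 to ES20 and 4 lower, Msln included, with a median of 0.80. Gata6, a factor of heart mesoderm and endoderm, was at 10.26, 10.85, 10.67 and 10.70 against 6.96 and 6.91, a difference of 3.75, or 6.02 when its probe sets were ranked over the 6 arrays alone. Wt1, the Wilms tumour factor of mesothelium and epicardium, was at 7.90, 8.20, 7.71 and 7.33 against 6.34 and 6.78. The simple keratins Krt8 and Krt18 were called higher by 2.60 and 2.25, and the surface genes Upk1b and Lrrn4 by 1.22 and 1.44. Both keratins also count in the epithelium list, and ES15 and ES16 were higher still, at 11.84 and 11.07 for Krt8 and 11.18 and 10.58 for Krt18. The mean level of the mesothelium and epicardium list was 7.53 to 7.74 in ES17 to ES20, 6.90 and 7.12 in ES25 and ES26 and 7.21 to 7.34 in ES21 to ES24. Besides Msln, the genes called lower were Efemp1, a fibulin at 6.51, 7.91, 7.91 and 7.71 against 10.56 and 10.69, Tbx18 (-2.30) and Pdpn (-1.14).

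Blood and vessel genes were frequent among the largest differences towards ES17 to ES20. The embryonic globin Hbb-bh1 was at 12.13, 11.61, 10.80 and 9.74 in ES17, ES18, ES19 and ES20 and at 2.82 and 3.86 in ES25 and ES26, the widest difference measured, 7.86. Hbb-y was at 13.71, 13.66, 13.44 and 12.90 against 6.19 and 6.45, and the embryonic alpha-like globin Hba-x at 12.83, 12.58, 11.88 and 10.66 against 6.63 and 7.15. The adult globin Hbb-b1 was at 10.20, 10.20, 10.75 and 10.86 against 3.93 and 4.92, a difference of 6.05 that was 4.03 by the median and 3.90 by the mean over all probe sets. The sets did not overlap for any of the 4 globins. Beta-like globins are near copies of each other, and their probe sets may not keep them apart.

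Of the erythroid list as a whole, 19 of 24 genes were called higher and 0 lower, with a median of 2.53. The haem synthesis gene Alas2 differed by 5.08, the band 3 anion exchanger gene Slc4a1 by 4.85 and the erythroid factor Gata1 by 3.57. The mean level of the list was 8.57 to 9.77 in ES17 to ES20 and 6.02 and 6.16 in ES25 and ES26. In ES15 and ES16 it was 9.89 and 10.21, above all of ES17 to ES20. Hbb-bh1 was likewise higher there, at 12.57 and 12.67, so high erythroid levels are not particular to ES17 to ES20. Pf4, a platelet chemokine outside the list, was at 11.80, 11.72, 11.57 and 11.09 against 5.20 and 4.92.

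Leukocyte genes had 24 of 36 called higher and 0 lower, with a median of 2.01. Plek, a platelet and leukocyte signalling protein, and the chemokine gene Ccl3 were named for their size and are not among those 36. Plek was at 12.22, 12.00, 11.52 and 11.29 against 4.98 and 4.48, a difference of 7.03. The macrophage chemokine Ccl3 was at 10.78, 10.79, 10.61 and 10.40 against 5.00 and 4.14, and the listed gene Adgre1, a surface marker of macrophages, at 8.28, 8.64, 8.92 and 9.23 against 4.59 and 4.34. The listed receptor tyrosine kinase gene Kit, of mast and progenitor cells, was at 10.08, 10.04, 10.22 and 9.92 against 5.29 and 5.67. Kit ranged from 8.03 to 8.88 in ES21 to ES24, also well above ES25 and ES26. Ptprc, the pan-leukocyte CD45, was at 7.48, 7.08, 7.02 and 7.11 against 4.34 and 4.37, and ES21 to ES24 ranged from 4.22 to 4.42. Among granule genes Lyz2 and Mpo were called higher, by 3.78 and 1.19, and Ctsg, Prtn3 and Ngp were not. The mean level of the list was 7.50 to 7.74 in ES17 to ES20, 5.73 and 5.62 in ES25 and ES26 and 5.79 to 6.01 in ES21 to ES24. ES15 and ES16 lay between, at 6.37 and 6.99.

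Endothelial genes had 21 of 30 called higher and 1 lower, with a median of 1.87. Kdr, the main receptor for vascular endothelial growth factor, was at 10.82, 11.03, 11.14 and 11.30 against 4.66 and 5.14, a difference of 6.19. The junction genes Pecam1 and Cdh5 were at 10.45, 10.05, 9.81 and 9.76 against 5.23 and 4.84 and at 9.50, 9.28, 8.56 and 8.39 against 5.30 and 5.62. Pecam1 ranged from 7.57 to 9.14 in ES21 to ES24, also well above ES25 and ES26. Emcn, a sialomucin of vessels, differed by 4.15 and the factor Fli1 by 3.61. Apln, the apelin ligand of tip cells, was the 1 member called lower, at 5.21, 5.78, 5.69 and 6.12 against 8.56 and 9.11. The mean level of the list was 7.55 to 8.32 in ES17 to ES20, 5.97 and 6.04 in ES25 and ES26 and 6.29 to 6.57 in ES21 to ES24. ES15 and ES16, at 7.81 and 8.05, lay inside the range of ES17 to ES20. Flt1 (0.64), Robo4 (0.70) and Etv2 (0.01) were not called.

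**Figure D4:**
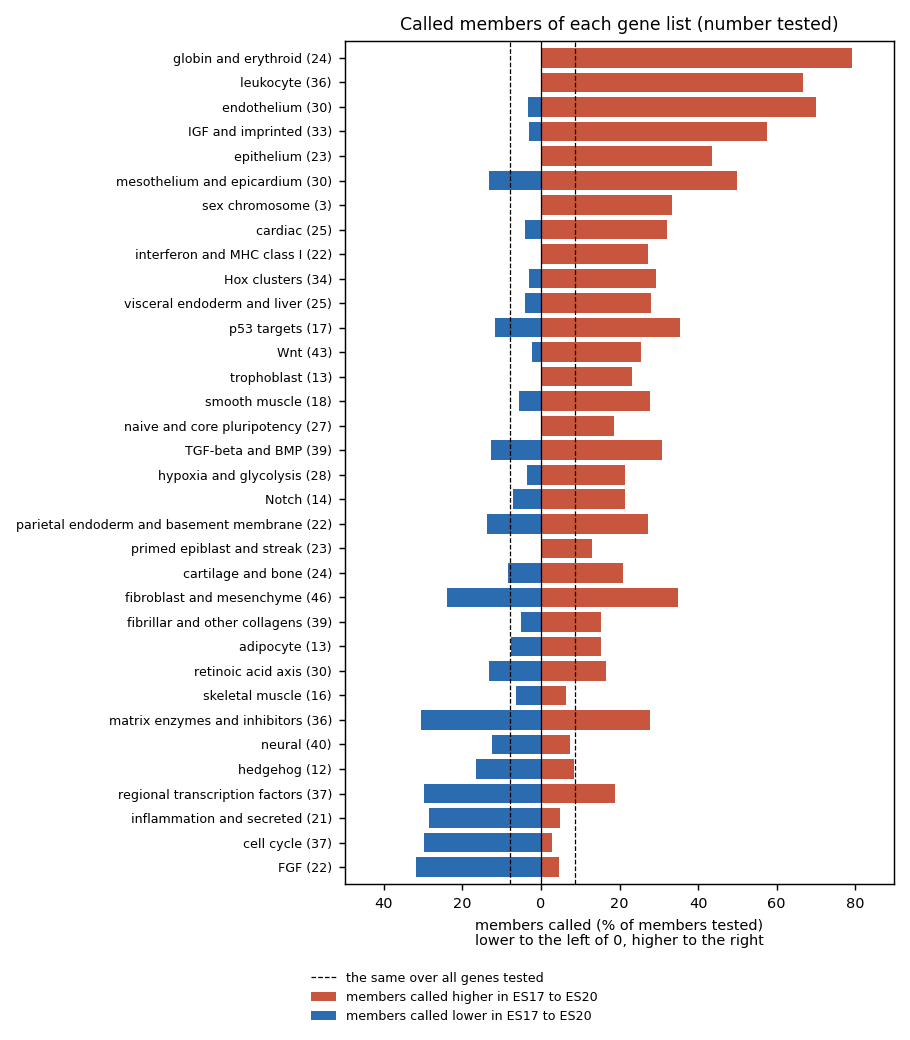
Share of tested members (horizontal axis, %) called higher (red, to the right) or lower (blue, to the left) in ES17 to ES20 for each of 34 gene lists, with the number tested after each name and dashed lines at the shares over all genes, 8.56% and 7.86%. The erythroid, leukocyte and endothelium lists reach farthest to the right, FGF and cell cycle genes lean to the left, and fibroblast genes and matrix enzymes extend both ways.

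Further lists marked other cell types. Epithelium genes had 10 of 23 called higher and 0 lower, with a median of 0.72 and mean levels of 7.38 to 7.51 against 6.31 and 6.63. The list was higher still in ES21 to ES24, at 7.90 to 8.50, and in ES15 and ES16, at 7.76 and 7.60. Cldn6, a claudin of early epithelia, differed by 3.48 (2.07 by the median over all probe sets) and was at 9.00 to 9.87 in ES21 to ES24, above ES17 to ES20. Epcam was at 7.65, 8.09, 7.81 and 7.92 against 5.75 and 6.58. Visceral endoderm genes had 7 of 25 higher and 1 lower. The fetal serum protein Afp spread from 6.34 to 9.97 within ES17 to ES20, highest in ES20, and was 4.73 and 4.82 in ES25 and ES26. Ttr, the transthyretin carrier, was at 8.09, 9.35, 10.43 and 9.61 against 5.56 and 5.40. Laminin genes of the basement membrane split, with Lama4 and Lama2 higher by 4.35 and 3.30 and Lama5 (-1.21) and Lamb1 (-1.29) lower.

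Heart genes had 8 of 25 called higher and 1 lower. The factors Hand1, Tbx20 and Tbx5 were higher by 2.44, 2.00 and 1.93, and by the median over all probe sets the difference of Hand1 was 4.06. In ES15 and ES16 Hand1 was higher still, at 11.16 and 10.93, while Tbx20 (10.53 and 10.80) and Tbx5 (4.79 and 5.09) lay below ES17 to ES20. Of 16 contractile heart genes 3 were called higher, Tnni1, Ryr2 and Myl7, and Myh6 (0.11) and Tnnt2 (0.72) were not. In the smooth muscle list 5 of 18 genes were called higher and 1 lower, with Itga8 and Mylk higher by 2.27 and 1.58 and Myh11 not called (-0.14). Among the brighter genes alone, 7 of this list were tested and 0 called. Skeletal muscle genes had 1 of 16 called higher, Mef2c, and 1 lower, the muscle progenitor and neural crest factor Pax3 (-2.43). Either count was 6.25% of the list, below the 8.56% and 7.86% over all genes.

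Cartilage and bone genes had 5 of 24 called higher and 2 lower. The link protein gene Hapln1 was at 8.04, 7.40, 7.61 and 7.55 against 3.78 and 3.52, although its difference of 3.93 was 2.14 by the median over all probe sets. The chondrocyte factors Sox5 and Sox6 were higher by 2.33 and 2.51, and Sox9 was not called (-0.61). Runx2, the factor that commits cells to bone, was lower at 6.48, 6.76, 6.64 and 6.68 against 9.75 and 9.58, a difference of -3.00 and -1.83 by the median over all probe sets. In the adipocyte list the lipase gene Lpl and the fatty acid receptor gene Cd36 were higher (3.99 and 3.43) and the adipocyte factor Pparg lower (-2.28), out of 13. By the mean over all probe sets the difference of Lpl was 2.36, and by their median that of Pparg was -1.50. Among 40 neural genes 3 were called higher and 5 lower, among them Gap43 (2.95) and the neuronal tubulin Tubb3 (-2.78). These counts are 7.5% and 12.5%, near the 8.56% and 7.86% over all genes, so nothing is read from them.

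As a list, pluripotency genes were well below ES21 to ES24 in both sets. Their mean level was 7.43 to 7.76 in ES17 to ES20 and 6.79 and 7.53 in ES25 and ES26, against 10.06 to 10.67 in ES21 to ES24. Pou5f1 was at 8.01, 8.31, 7.74 and 8.07 in ES17 to ES20 and at 6.61 and 7.82 in ES25 and ES26, and ES21 to ES24 ranged from 11.23 to 11.70. Of 27 genes 5 were called higher and 0 lower. The count rested on ES25 and ES26, which differed from each other: without ES25 it was 2 higher and 5 lower, and without ES26 it was 10 higher and 0 lower. Without ES20 it was 3 higher. Nanog was at 8.49, 8.81, 8.31 and 9.16 against 7.20 and 8.09, and Dppa3 at 5.28, 6.28, 6.38 and 6.52 against 4.01 and 3.13. The difference of Dppa3 was 2.76, but 1.51 by the median and 0.95 by the mean over all probe sets. For Dppa3, ES18, ES19 and ES20 lay inside the range of ES21 to ES24, 5.76 to 7.85.

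Imprinted genes are expressed from 1 parental allele. Of 22 imprinted genes 14 were called higher and 0 lower, with a median of 1.94. H19, a long noncoding RNA, was at 13.39, 13.43, 13.31 and 13.28 in ES17, ES18, ES19 and ES20 and at 7.82 and 7.45 in ES25 and ES26. The ranges were far apart, the difference was 5.71, and ES21 to ES24 lay between at 9.21 to 11.05. Its neighbour Igf2, a fetal growth factor, was at 12.55, 12.79, 12.84 and 12.95 against 7.68 and 7.43, and here ES25 lay inside the range of ES21 to ES24, 7.43 to 8.22, and ES26 at its lower edge. Meg3 and Rian, noncoding RNAs of another imprinted cluster, were at 11.84, 12.37, 12.47 and 12.43 against 8.21 and 8.07 and at 12.03, 12.32, 12.35 and 12.36 against 8.46 and 8.63. In ES15 and ES16 H19 was at 13.23 and 13.36, Igf2 at 12.16 and 12.42 and Meg3 at 10.82 and 11.45. For these genes, levels well above ES25 and ES26 are therefore not particular to ES17 to ES20. Mest, Nnat, Plagl1 and Peg3 were called higher by 3.71, 3.48, 2.97 and 2.72. Snrpn (0.09), Kcnq1ot1 (0.08) and Impact (-0.17) were not called. In the IGF axis Igf1 and Igfbp5 were higher (3.59 and 4.99), and the binding protein gene Igfbp6 was lower at 5.87, 5.53, 5.56 and 5.81 against 9.30 and 9.97.

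Hox genes carry position along the body and limb axes. Of 34 tested, 10 were called higher and 1 lower, with a median of 0.02. The genes called higher came from the Hoxc cluster (5 of 8: Hoxc5, Hoxc6, Hoxc8, Hoxc9 and Hoxc10), the Hoxa cluster (3 of 9: Hoxa9, Hoxa10 and Hoxa11) and the Hoxd cluster (2 of 7: Hoxd10 and Hoxd13). Hoxc10 was at 7.15, 7.04, 6.88 and 6.85 against 5.03 and 4.96, and Hoxa10 at 7.49, 8.28, 7.95 and 7.97 against 6.23 and 5.88. In ES15 and ES16 Hoxc10 was higher still, at 7.65 and 7.74, and Hoxa10 was at 7.84 and 7.91. Hoxd13 was at 7.06, 7.00, 7.11 and 5.92 against 4.98 and 5.22, with ES20 apart from the other 3 arrays of its set. In the Hoxb cluster 0 of 10 were called higher and 1 lower, Hoxb9 at 6.49, 6.31, 6.30 and 6.21 against 8.18 and 8.26. The count of Hox genes called lower moved with the summary, to 7 by the median and 6 by the mean over all probe sets, while those called higher stayed at 10 by both. The count called lower was 3 without ES19 or ES25 and 2 without ES18, ES20 or ES26. Most Hox genes fell out under stricter filters. With 8 probe sets or more per gene, 11 were tested, 1 called higher and 0 lower, and among the brighter genes alone 2 were tested and 0 called.

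**Figure D5:**
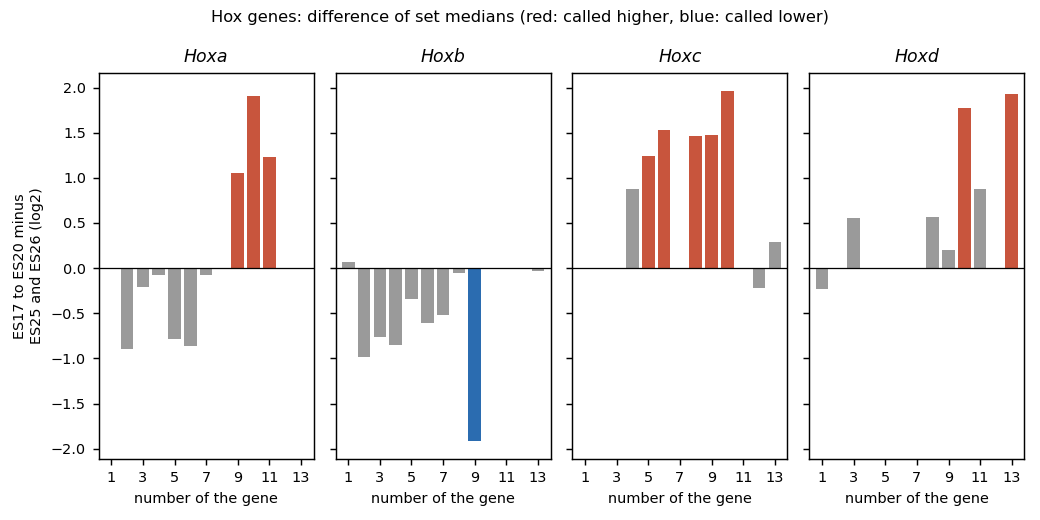
Difference of set medians (vertical axis, log2, ES17 to ES20 minus ES25 and ES26) for 34 Hox genes in 4 panels, 1 per cluster, placed by the number of the gene (horizontal axis). Red bars are the 10 genes called higher, at numbers 9 to 11 in Hoxa, 5 to 10 in Hoxc and 10 and 13 in Hoxd, the blue bar is Hoxb9 and grey bars were not called.

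Other transcription factors also mark regions of the embryo. Of 37, 7 were called higher and 11 lower. Tbx4, a factor of hindlimb and lung mesenchyme, was at 10.89, 10.45, 9.88 and 9.43 against 6.56 and 5.98, a difference of 3.90. It was as high in ES15 and ES16, at 10.63 and 10.97. Pitx1, which acts above Tbx4 in the hindlimb, and Tbx2 were higher by 1.97 and 1.79. The homeobox gene Dlx1 was at 6.48, 5.54, 5.70 and 5.94 against 9.71 and 9.67, and Lhx9, of gonad and limb, at 4.22, 4.34, 4.59 and 4.47 against 7.27 and 8.07. Eya1 (-3.16), Shox2 (-2.46) and Tbx15 (-2.18) were also called lower. For Dlx1 and Lhx9 both ES25 and ES26 were above all of ES17 to ES20.

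Signalling genes also split by pathway and role. Among TGF-beta and BMP ligands 6 of 11 were called higher, with Bmp5 at 6.93, 7.63, 7.85 and 7.77 against 4.51 and 4.59, Bmp2 with a difference of 2.94 (1.66 by the mean over all probe sets) and Tgfb1 with one of 2.05. Inhba, the activin A subunit, was the 1 ligand called lower, at 6.78, 6.03, 6.54 and 6.59 against 8.44 and 9.18. Of the inhibitors, Bambi and Smad6 were higher by 1.89 and 1.68, and Grem1, a BMP antagonist (-2.03), and Ltbp1 (-2.19) lower. The target Tgfbi was higher by 2.21, and Ccn2 was not called (-0.12). Over that list 12 of 39 were higher and 5 lower, with a median of 0.21.

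In the Wnt pathway 11 of 43 genes were called higher and 1 lower, with a median of 0.16. The ligand gene Wnt2 was at 9.80, 10.29, 10.08 and 9.77 against 5.36 and 5.61, a difference of 4.45. The secreted inhibitors Sfrp1, Sfrp2, Dkk3 and Frzb were higher by 3.56, 2.73, 2.14 and 1.89, although the difference of Sfrp2 was 1.71 by the median over all probe sets. The feedback target Axin2 was at 7.41, 7.49, 7.53 and 7.77 against 5.97 and 5.46. Ccnd1, which encodes cyclin D1 and is a reported Wnt target, was the 1 gene called lower, at 8.67, 8.20, 8.17 and 8.37 against 12.23 and 12.42. ES21 to ES24 ranged from 11.15 to 12.21 for Ccnd1, all above ES17 to ES20.

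FGF genes leaned the other way, with 1 of 22 called higher and 7 lower and a median of -0.34. Fgf7, a growth factor of mesenchyme that acts on epithelia, was at 4.46, 4.80, 5.07 and 5.24 in ES17, ES18, ES19 and ES20 and at 10.11 and 10.25 in ES25 and ES26. The difference was -5.25, and ES21 to ES24 lay between at 7.14 to 9.15. Of 8 genes that report FGF signalling, 5 were called lower and 0 higher. Etv4, a transcription factor induced by FGF, was at 6.39, 6.04, 6.12 and 5.61 against 9.61 and 10.05, and Spry4, Dusp6, Etv1 and Etv5 differed by -1.60, -1.46, -1.63 and -1.18. The receptor gene Fgfr3 was the 1 called higher, by 2.45; without ES17, ES18 or ES25 the count was 3. Hedgehog genes had 1 of 12 higher (8.33%) and 2 lower (16.7%), with the target Ptch1 not called (0.12). Notch genes had 3 of 14 higher (21.4%), Notch3 (2.46), Dll4 (1.67) and Hey1 (1.26), and 1 lower (7.14%), Lfng (-1.86).

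Cell cycle genes were called lower more often than higher, 11 of 37 against 1, with a median of -0.80. Among 28 proliferation genes 7 were called lower and 0 higher: Ccne2 (-1.55), Ccne1 (-1.35), Foxm1 (-1.22), Cdk1 (-1.16), Cdc20 (-1.14), E2f1 (-1.13) and Aurka (-1.10). Mki67 and Top2a were not called, at 10.37 to 10.83 against 10.76 and 10.39 and 11.09 to 11.43 against 11.15 and 11.17. Cdkn1a, the p21 inhibitor, was at 10.34, 10.07, 9.58 and 9.86 against 5.98 and 7.56, a difference of 3.20. Cdkn2a, Cdkn2b and Cdkn2c were called lower, with differences of -1.57, -1.47 and -1.77; ranked over the 6 arrays alone, that of Cdkn2a was -2.90. Genes reported as p53 targets, Cdkn1a included, were called in both directions, 6 of 17 higher and 2 lower, with Btg2 at 10.48, 10.87, 10.71 and 10.86 against 5.76 and 5.99 and Perp (-2.34) lower.

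The 21 listed genes of secreted inflammatory factors and prostaglandin synthesis had 1 called higher and 6 lower, with a median of -0.35. Ptx3, a soluble pattern recognition protein, was at 4.52, 4.94, 4.72 and 4.91 against 7.81 and 7.91. The prostaglandin synthases Ptgs1 and Ptgs2 were lower (-2.61 and -2.82), as was the macrophage growth factor Csf1 (-2.15). Chemokines outside this list, Ccl3 (6.12), Pf4 (6.58) and Ppbp (4.16), were called higher, so the counts describe the listed genes alone. Hgf, the ligand of the Met receptor, was the 1 listed gene called higher, at 7.09, 7.89, 7.98 and 8.21 against 4.64 and 4.47. Its receptor gene Met lay the other way, at 6.03, 6.13, 6.12 and 6.10 against 10.26 and 10.48. Interferon and MHC class I genes had 6 of 22 called higher and 0 lower, led by H2-K1 at 9.30, 9.19, 9.10 and 9.21 against 6.92 and 7.32. Among hypoxia and glycolysis genes 6 of 28 were called higher, the glucose transporter gene Slc2a3 by 3.34, and 1 lower, the muscle enolase Eno3 (-2.84).

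The genes with the largest differences towards ES25 and ES26 came from no single list. Tm4sf1, a tetraspanin-like surface protein, was at 6.26, 6.52, 6.22 and 6.58 in ES17, ES18, ES19 and ES20 and at 12.32 and 12.79 in ES25 and ES26, the largest difference in this direction, -6.16. Ankrd1, a target of the Hippo pathway effector YAP, was at 6.01, 5.61, 5.52 and 5.79 against 10.00 and 10.67. Osmr, the oncostatin M receptor, differed by -4.07, Anxa8, an annexin, by -4.61, Akr1c18, a steroid reductase, by -4.49 and Mlkl, the effector of necroptosis, by -4.47. Gpr149, Klhdc8a and Sostdc1, a secreted BMP and Wnt antagonist, differed by -4.65, -4.34 and -4.15, the last by -2.75 as the mean over all probe sets. Of the 14 largest, which also hold Fgf7, Msln, Met, S100a4 and Ccnd1, ES21 to ES24 lay above all of ES17 to ES20 in 14, and also below both ES25 and ES26 in 11.

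Among the 14 largest towards ES17 to ES20, those not yet given were the following. Gpc3, a heparan sulfate proteoglycan that binds growth factors, was at 10.93, 11.41, 11.38 and 11.30 against 5.05 and 5.68. Selenop, the selenium transport protein, was at 8.24, 9.00, 9.40 and 9.38 against 3.34 and 3.37, a difference of 5.84 that was 3.70 by the median over all probe sets. Gucy1b1, a subunit of the nitric oxide receptor, was at 9.74, 10.08, 10.18 and 10.30 against 4.62 and 3.96. The iron exporter gene Slc40a1 differed by 5.72 and Klhl6, of lymphoid cells, by 5.73. For all 14 of these genes ES21 to ES24 lay below ES17 to ES20, and ES15 and ES16 lay above both ES25 and ES26.

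An exon array also shows where 1 probe set departs from the rest of its gene. Probe sets were kept where their own mean over the 6 arrays exceeded the median probe set and that of their gene the median gene. Since 4 of the 6 arrays are ES17 to ES20, a probe set high in these alone could pass, so the counts by direction are not compared. Among 158015 probe sets kept, of 9170 genes, 650 lay higher and 540 lower relative to their gene in ES17 to ES20. They did so by 2 log2 units or more without overlap, or 0.753%, and belonged to 494 genes. Of these 1190 probe sets, 1024 lay in genes that were themselves called. A probe set that stays level departs by about its gene's own difference, so calls in such genes can follow from that difference alone. Probe set 5148899 of Gata6 was at 12.38 to 12.68 in ES17 to ES20 and at 2.19 and 2.70 in ES25 and ES26, a wider gap than that of the gene value. Probe set 5511478 of Tie1, an endothelial receptor, was at 8.33 to 10.94 against 1.97 and 2.47. Both probe sets lay below the median probe set in ES25 and ES26, so they passed the filter through ES17 to ES20. Probe sets of 4 called genes did not follow their gene. Of these, 5584968 of Plek was at 6.47 to 6.83 against 6.54 and 6.04, and 4493653 of Igf2 at 7.63 to 8.35 against 8.33 and 8.18. Those of Ccl3 (4903696) and Gpx3 (4324906) departed by -5.23 each. In the order Plek, Igf2, Ccl3 and Gpx3, the probe sets themselves differed by 0.39, -0.01, 0.72 and -0.22. Their departures thus largely restate the difference of the gene value.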

How the data were processed

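RNA from 26 samples was measured on the Affymetrix Mouse Exon 1.0 ST array. The authors deposited RMA values of an extended-exon analysis, per the labels, made with Affymetrix Expression Console per the submitters' processing notes, version not given in the sources used here. The values deposited by the authors are on a log scale per probe set, taken as log2 from RMA convention and their range, 0.831 to 15.6. RMA makes the arrays' distributions alike, so a shift common to most genes would not show. Arrays give no read depth, and their number limits the precision.

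Of 631748 probe sets, the platform annotation gave 306069 a single gene; 6067 had several and 319612 had no gene name. Of 21757 symbols, 17747 were current in RefSeq (GRCm38.p6), 3725 were updated and 285 kept as given. The gene value is the median of the brighter part (50%) of the probe sets of a gene, taken by mean brightness across 26 arrays, for genes with at least 4.

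The members and the 34 gene lists (828 of 895 genes tested) were chosen with earlier results of these data known, so no test was made. A call needed ranges without overlap and medians 1 log2 unit apart. Named were the 14 largest called differences in each direction with at least 0.75 of probe sets shifted alike, the 4 markers, up to 4 called genes per list with the largest difference, members of families described whole, and the 6 largest probe set departures at 1 per gene. All other genes named were chosen after their values were seen. Promoter sequences came from RefSeq; Dcn, Lum, Msln and Crabp2 had none there. Alternatives changed the gene summary, its filters, the normalization, the call rule and the arrays. The call rule was tested on simulated gene values, and the other steps were not. Python 3.11.15, pandas 2.3.3, numpy 2.4.6 and matplotlib 3.10.9 were used.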

Additional observations from a re-analysis of the deposited data

Results flagged for a closer look

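For 141 named genes and 34 lists, the highest or lowest of ES17 to ES20 was compared with the other 3 arrays, and 7 of these 175 had a gap to the nearest array that took up more of the whole range than Dixon's critical value for 4 samples. Chance flags about 1 in 20. ES17 stood below the others for Fmod at 7.93 (others 9.10 to 9.18), for Efemp1 at 6.51 (7.71 to 7.91), for Tbx20 at 10.84 (11.16 to 11.20) and for Meg3 at 11.84 (12.37 to 12.47). ES19 stood above the others for Msln at 5.65 (5.32 to 5.37). ES20 stood above them for Tgm2 at 9.65 (9.07 to 9.10) and below them for Hoxd13 at 5.92 (7.00 to 7.11). These 7 genes were all called, so by the rule their sets did not overlap, and leaving out the array apart could not change that.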

How the results depend on the processing

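No paired analysis was possible because the titles number the samples from 1 to 26 and the sets share no replicate number. The count of genes called higher, 1570, was 685 over the brighter genes alone, 585 with a minimum difference of 2 log2 units, 904 with a gap between the ranges of 1 unit and 4297 with no minimum difference; the count called lower, 1442, was 223, 610 and 5070 under the last 3. Leaving out 1 array gave 1550 to 1770 higher and 1127 to 2149 lower. The lower count moved most with the smaller set, 2149 without ES25 and 1127 without ES26, and 42.2% and 61.1% of the calls were then higher, beside 52.1% with all arrays. That share was 38.7% over the brighter genes alone, whose median difference was -0.21, 72.4% with a minimum of 2 units, and 59.2% after quantile normalization. Of 1551 recomputed values of named genes, 1273 moved by less than the spread of the arrays and 278 moved further. Among called genes 0 changed sign, while 5 values of Col1a2, which was not called, did (down to -0.31 from 0.04). Leaving out 1 array could not change the sign of a called gene, since its ranges did not overlap. That 0 therefore bears on the other alternatives alone. Of 374 list medians 35 changed sign, in 12 lists whose main medians were at most 0.33 in size. Beside pluripotency genes, counts of list members moved by over 1.5 times without 1 array only where the count was 2 or less. The sets hold 4 and 2 arrays, so each range of ES25 and ES26 rests on 2 values.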

Other observations

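ES25 and ES26 differed from each other by 1 log2 unit or more at 486 genes, of which 317 were higher in ES26. The widest was Rex2, at 5.47 in ES25 and 7.91 in ES26, followed by Pou5f1-rs4, a copy related to Pou5f1, at 4.20 and 6.53, and the cytokine gene Il24 at 3.80 and 5.97. The carbonic anhydrase gene Car2 was at 5.20 and 7.13. In the other direction Hmgn5, a nucleosome-binding protein, was at 7.90 in ES25 and 5.59 in ES26, the splicing-associated gene Pnn at 10.20 and 8.24, and Col1a1 at 11.41 and 9.70.

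Within ES17 to ES20, 50 genes (0.273%) spanned 2 log2 units or more. After Afp, the widest was the lysozyme gene Lyz2, at 6.60, 8.16, 9.33 and 9.94 in ES17, ES18, ES19 and ES20. The matrix and mesenchyme genes Col6a3, Lum, Dpt (dermatopontin) and Mgp (matrix Gla protein) were among the 12 widest, each lowest in ES17, with Dpt at 3.97, 3.98, 5.43 and 6.92 and Mgp at 7.06, 8.14, 9.48 and 9.75. Mstn, the myostatin gene, was at 5.25, 6.69, 8.29 and 8.09, against 2.92 and 3.72 in ES25 and ES26. Rmst, a long noncoding RNA, had 1 array apart, ES20 at 7.30, with the others at 4.44 to 4.63.

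Some probe sets departed in genes whose own value hardly differed. There were 79 in 48 genes with a gene difference under 0.5, a limit chosen after the values were seen. Probe set 4912484 belongs to Macroh2a1, which encodes the histone variant macroH2A1. It was at 7.73, 8.53, 8.16 and 7.90 in ES17 to ES20. In ES25 and ES26 it was at 3.07 and 3.84, below the median probe set, so it passed the filter through ES17 to ES20. The gene value was 9.83 to 10.11 in ES17 to ES20 and 9.88 and 10.12 in ES25 and ES26. Probe set 4736203 of Col6a3 went the other way, at 4.31, 5.68, 6.17 and 6.62 against 9.88 and 8.82. Probe set 5181835 of Pibf1 was at 10.28 to 11.08 against 7.81 and 7.53, and 5009902 of C2cd5 at 9.24 to 10.30 against 6.70 and 6.66.

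The Y-linked gene Eif2s3y was at 9.48, 9.69, 9.66 and 9.71 in ES17 to ES20 and at 7.92 and 7.87 in ES25 and ES26, while Kdm5d, also Y-linked, was not called, at 4.63 to 5.29 against 5.02 and 4.27. Placental genes had 3 of 13 members called higher and 0 lower, with Plac1 at 9.44, 9.51, 8.76 and 8.43 against 6.37 and 6.63.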
